A study of Mus musculus with 12 samples.

Results

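The apolipoprotein genes were followed while mouse embryonic stem (ES) cells differentiated at random. Members were the measured genes whose symbol is Apoa, Apob, Apoc, Apoe, Apoh or Apom, with or without a digit at the end. This name rule used no measured value and gave 12 genes, each with 1 probe, out of 9212 named genes and 11520 probes: Apoa1, Apoa2, Apoa4, Apoa5, Apob, Apoc1, Apoc2, Apoc3, Apoc4, Apoe, Apoh and Apom. The control channel held RNA of undifferentiated R1 ES cells, an established mouse line, kept on gelatin with leukemia inhibitory factor. The other channel held RNA of embryoid bodies (EB), the clumps that ES cells form when left to differentiate undirected, which had been dissociated and cultured in serum for 4, 8, 15 or 21 days. Each day had 3 arrays, 12 in all. No transgene, mutation or drug is named for any group, and the cells of a plate were measured together. More RNA per cell and more cells of a type therefore cannot be told apart.

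Apolipoproteins are the protein part of the particles that carry fat and cholesterol in blood. Liver, intestine and yolk sac endoderm are their main sources, and the yolk sac makes them in the embryo before the liver does. Apob is the large scaffold of the fat-rich particles, Apoa1 and Apoa2 are the main proteins of high-density lipoprotein (HDL), and the small Apoc proteins and Apoe move between particles and set how they are broken down and taken up.

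Values are the authors' log ratios, read as base 2 by convention, with the deposited sign. A positive value is taken as more RNA in EB than in ES cells. That reading follows the labelling protocols and remains unproven, because sample titles and dye fields point the other way. Endoderm and ES cell genes helped to choose it, so the direction of the apolipoprotein genes cannot speak for it, and under the other reading each higher becomes lower. A gene is said to be called when limma's p, adjusted over all 10689 features, was below 0.05. Errors are standard deviations over 3 arrays, and nothing in the labels ties each array to its own culture. The p-values therefore measure the spread between arrays, which may be technical. Every array was centred close to 0, with medians from -0.0018 to 0.0106. The arrays also fell into 2 sets by 62 features without a gene name, with set medians of -0.23 to 0.07 on 7 arrays and -1.3 to -0.64 on 5 arrays. The second set holds array 3 of every day and array 2 of day 8. The sets were drawn after the data were seen and carry no label, so they are not a known batch. With the set as a term in the fit, 4, 9 and 10 members were called at days 8, 15 and 21, and 454, 1281 and 2126 of the 10689 features. Why the sets differ was not tested.

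Most of the apolipoprotein genes rose in EB, and nearly all of the calls came at days 15 and 21. None of the 12 was called at day 4, when 0% of all features were. Over all probes the day 4 arrays were little alike, with Pearson's r of 0.005 to 0.206 between them. Within days 8, 15 and 21 it was 0.349 to 0.614, 0.392 to 0.818 and 0.56 to 0.77. Whether the lack of day 4 calls reflects small changes or unlike arrays was not tested. At day 8, 2 members were called, both higher, with 2.28% of all features called and 1.23% called higher. By day 15 the count was 9, again all higher, against 10.6% of features called and 5.66% called higher. At day 21 it was 10, all higher, against 18.7% called and 8.78% called higher. Shares of features called lower were 1.06%, 4.9% and 9.93% at days 8, 15 and 21. The median of the 12 day means went from 0.128 at day 4 to 0.43 at day 8, 1.153 at day 15 and 1.08 at day 21, while the median of all features stayed between -0.0011 and 0.0074. All 3 arrays were above 0 for 2 members at day 4 (14.8% of features), 8 at day 8 (22.2%), 11 at day 15 (24.4%) and 10 at day 21 (27.8%). Where a set fitted alone holds 2 arrays of a day, the first set called 0, 9 and 10 members at days 4, 15 and 21. Of 10689 features it called 0, 1742 and 2156 on those days. The second set called 3 members and 259 features at day 8. At day 4 only Apoc4 had an unadjusted p under 0.05, and after quantile normalization it was called (0.55, adjusted p = 0.033).

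**Figure D1:**
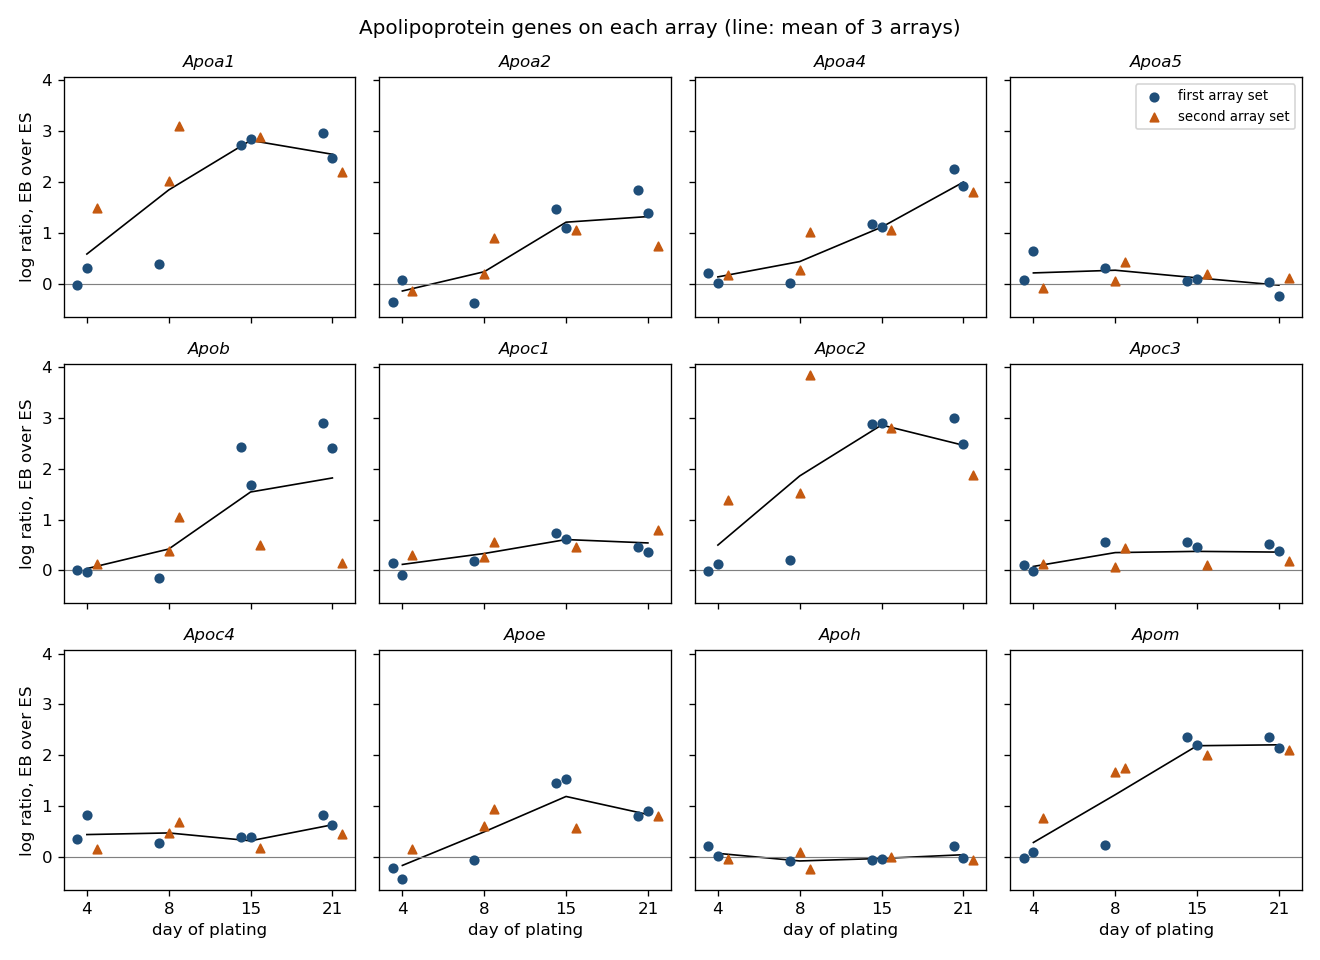
Log ratio of EB over ES RNA (vertical axis, log scale as deposited) of the 12 apolipoprotein genes by day of plating (horizontal axis). Each point is 1 array, circles and triangles mark the 2 array sets, and the line joins the means of 3 arrays; Apoa1, Apoc2 and Apom lie between 1.89 and 3.01 on every day 15 and day 21 array, while Apoh stays between -0.24 and 0.22 throughout.

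The sequences upstream of 4 members are shown to set the different patterns beside their promoters. They are those of Apoa1 and Apoc2, with the largest EB to ES ratios at day 15, of Apob, which had the widest spread at days 15 and 21, and of Apoh, which stayed near 0. Each is the stretch of 250 bases before the RefSeq gene start (GRCm38.p6), read along the gene. They lie at chr9:46228380-46228629 on the plus strand for Apoa1, chr7:19677942-19678191 on the minus strand for Apoc2, chr12:7977427-7977676 on the plus strand for Apob and chr11:108395047-108395296 on the plus strand for Apoh. Capitals mark matches, on either strand, to 6 short motifs: TATAAA (the core promoter element called TATA box), AGGTCA (a nuclear receptor site), CAAAG (core of the HNF4 motif), GTTAAT (an HNF1 site), TGTTTAC (forkhead factors) and AGATAA (the site of GATA factors).
Apoa1: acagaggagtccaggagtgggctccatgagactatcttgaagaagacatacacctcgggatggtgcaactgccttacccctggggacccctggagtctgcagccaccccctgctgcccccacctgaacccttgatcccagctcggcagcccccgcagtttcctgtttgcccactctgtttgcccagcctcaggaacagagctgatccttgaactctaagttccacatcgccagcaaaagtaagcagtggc
Apoc2: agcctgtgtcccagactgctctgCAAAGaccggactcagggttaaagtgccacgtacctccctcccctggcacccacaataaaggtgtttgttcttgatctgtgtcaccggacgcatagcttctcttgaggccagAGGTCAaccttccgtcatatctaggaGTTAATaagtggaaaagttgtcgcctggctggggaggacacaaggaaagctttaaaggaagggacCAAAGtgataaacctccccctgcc
Apob: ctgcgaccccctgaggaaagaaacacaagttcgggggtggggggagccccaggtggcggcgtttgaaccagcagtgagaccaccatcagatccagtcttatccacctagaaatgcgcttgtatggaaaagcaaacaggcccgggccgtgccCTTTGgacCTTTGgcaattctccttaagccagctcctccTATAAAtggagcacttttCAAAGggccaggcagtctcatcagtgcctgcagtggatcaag
Apoh: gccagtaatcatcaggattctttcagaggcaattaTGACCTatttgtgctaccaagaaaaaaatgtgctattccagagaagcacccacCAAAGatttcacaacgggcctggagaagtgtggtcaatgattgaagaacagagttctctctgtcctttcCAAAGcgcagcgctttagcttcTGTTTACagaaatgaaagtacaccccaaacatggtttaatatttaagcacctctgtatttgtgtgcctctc
The Apoa1 stretch held none of the 6 motifs, whereas the stretches of Apoc2, Apob and Apoh each held the HNF4 core. Apob also had a TATA box, Apoc2 a nuclear receptor site and an HNF1 site, and Apoh a nuclear receptor site and a forkhead site. Such short words are common. Of 32851 RefSeq windows of 300 bases, which run 50 bases past the start, 53.9% held the HNF4 core, 16.3% the nuclear receptor site, 13.6% the TATA box, 11.2% the GATA site, 7.1% the HNF1 site and 3.6% the forkhead site. Of the 10 members with a window, 7 held the HNF4 core, 4 the nuclear receptor site, 4 the TATA box, 3 the forkhead site, 2 the HNF1 site and 0 the GATA site. Matches of different motifs may overlap. A member with more start sites has more windows, so these counts are descriptions of letters and not of binding.

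The genes for the HDL proteins Apoa1, Apom and Apoa2 were each called at days 15 and 21. Apoa1, the main HDL protein, which takes up cholesterol from cells and activates its esterification, had the log ratios -0.03, 0.30 and 1.48 on the day 4 arrays 1 to 3. They were 0.40, 2.03 and 3.11 at day 8, then 2.72, 2.84 and 2.89 at day 15 and 2.96, 2.48 and 2.20 at day 21. So the early arrays were spread widely, 1 array of day 8 was still close to the day 4 level, and all 6 late arrays were high and close together. Apoa1 was called at day 8 (1.84 ± 1.36, n = 3, adjusted p = 0.0318), day 15 (2.82 ± 0.09, adjusted p = 0.000926) and day 21 (2.55 ± 0.38, adjusted p = 0.000914). If the values are base 2 logs, the ratio was 7.06-fold at day 15 and 5.84-fold at day 21. The day 8 call was lost without day 8 array 2 (adjusted p = 0.127), without day 8 array 3 (1.21, adjusted p = 0.258) and without day 21 array 2 (adjusted p = 0.0514), and in a fit of the day 8 arrays alone (adjusted p = 0.148). Within the first array set day 8 has only array 1, where Apoa1 was 0.40.

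Apom, the HDL protein that carries the signalling lipid sphingosine-1-phosphate, followed a similar course with less scatter. Its log ratios were -0.01, 0.10 and 0.77 at day 4, 0.25, 1.68 and 1.76 at day 8, 2.36, 2.20 and 2.01 at day 15 and 2.37, 2.15 and 2.10 at day 21. Every day 15 and day 21 array was above every earlier one. Apom rose by 1.23 ± 0.85 at day 8 (adjusted p = 0.0235), by 2.19 ± 0.17 at day 15 (adjusted p = 0.000268) and by 2.21 ± 0.14 at day 21 (adjusted p = 8.11e-05). Its day 8 call was lost without day 8 array 2 (adjusted p = 0.125) or array 3 (adjusted p = 0.222) and in a fit of the day 8 arrays alone (adjusted p = 0.137), and its late calls held without each of the 12 arrays.

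Apoa2, with Apoa1 a main protein of HDL, had smaller ratios and was called at days 15 and 21. On the 3 arrays of each day it was -0.36, 0.07 and -0.14 at day 4, -0.38, 0.20 and 0.90 at day 8, 1.48, 1.10 and 1.05 at day 15 and 1.84, 1.39 and 0.74 at day 21. Only array 3 of day 8 reached the range of the later days. It rose by 1.21 ± 0.23 at day 15 (adjusted p = 0.00486) and by 1.32 ± 0.55 at day 21 (adjusted p = 0.00162), with 0.24 ± 0.64 at day 8 (adjusted p = 0.617). Without day 15 array 1 the day 15 value was 1.08 (adjusted p = 0.0589).

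Of the proteins of fat-rich particles, Apoa4, a protein of intestinal lipoproteins, had the biggest step from day 15 to day 21 (0.89, adjusted p = 0.542). It stood at 0.21, 0.02 and 0.18 on the day 4 arrays, 0.02, 0.27 and 1.03 at day 8, 1.17, 1.12 and 1.05 at day 15 and 2.26, 1.92 and 1.81 at day 21. The day 15 arrays lay within a narrow band, and all 3 day 21 arrays were above it. Apoa4 rose by 1.11 ± 0.06 at day 15 (adjusted p = 0.000864) and by 2.0 ± 0.24 at day 21, where its adjusted p of 9.62e-06 was the smallest of the 12 members. Both calls held without each array in turn and in the first array set alone, which has 2 arrays at each of these days.

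Apob, the scaffold on which chylomicrons and very-low-density lipoproteins are built, had the widest late spread of the members. Its log ratios were 0.02, -0.03 and 0.12 at day 4, -0.15, 0.38 and 1.04 at day 8, 2.43, 1.69 and 0.51 at day 15 and 2.90, 2.41 and 0.15 at day 21. At both late days arrays 1 and 2 were high and array 3 low, and array 3 of day 21 was close to the day 4 level. Apob rose by 1.54 ± 0.97 at day 15 (adjusted p = 0.042) and by 1.82 ± 1.47 at day 21 (adjusted p = 0.0127). At these days the low array is the 1 of the second array set: at day 21 the mean was 2.65 in the first set (2 arrays) and 0.15 in the second, and at day 15 it was 2.06 and 0.51. At day 8 the order was the other way, with -0.155 in the first set (1 array) and 0.709 in the second (2 arrays), and at day 4 the means were -0.005 and 0.12. The day 15 call was lost without any 1 of 7 arrays, with adjusted p-values from 0.051 to 0.276, among them array 1 (1.10) and array 2 (1.47) of that day and arrays 1, 2 and 3 of day 4, array 2 of day 8 and array 2 of day 21. The day 21 call was lost without day 21 array 1 (1.28, adjusted p = 0.138) or array 2 (1.53, adjusted p = 0.111). Fits of each day alone lost both calls (adjusted p = 0.0823 and 0.0756), and robust eBayes lost the first (0.0608).

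Apoa5, a liver protein that lowers plasma triglyceride, was not called on any day. Its mean was 0.27 ± 0.19 at day 8 (adjusted p = 0.26, 95% interval 0.000193 to 0.535) and 0.12 ± 0.06 at day 15 (adjusted p = 0.599). All 3 arrays were above 0 on both of these days. Over the 12 arrays Apoa5 ran from -0.23 to 0.64, its highest value being on day 4 array 2, and its day 21 mean was -0.03 ± 0.18 (adjusted p = 0.91, 95% interval -0.293 to 0.242). That interval lies below the day 21 interval of every called member except Apoc3, whose interval begins at 0.125.

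The Apoc genes rose unequally. Apoc2, the cofactor that switches on lipoprotein lipase, was -0.01, 0.12 and 1.38 at day 4 and 0.20, 1.53 and 3.85 at day 8. It reached 2.88, 2.90 and 2.80 at day 15 and 3.01, 2.49 and 1.89 at day 21. As with Apoa1, array 3 of day 4 and arrays 2 and 3 of day 8 were far above the other early arrays, and array 3 of day 8 gave the highest value of any member on any array. Apoc2 rose by 2.86 ± 0.05 at day 15 (adjusted p = 0.00364), or 7.25-fold in base 2, and by 2.46 ± 0.56 at day 21 (adjusted p = 0.00458). At day 8 its mean of 1.86 ± 1.85 was not called (adjusted p = 0.068), although only 2 features had a higher deposited day 8 mean (under the other reading of the sign, only 2 a lower one). It ran from 0.86 to 2.69 with each array left out, and was called without day 8 array 1 (2.69, adjusted p = 0.0203), after scaling (0.0354) and with array weights (0.0139). Without day 21 array 1 its day 21 adjusted p was 0.0541.

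The other Apoc genes changed by less than 1. Apoc1, a small protein of HDL and very-low-density lipoprotein, was 0.74, 0.62 and 0.46 at day 15 and 0.45, 0.37 and 0.80 at day 21. It rose by 0.61 ± 0.14 at day 15 (adjusted p = 0.00429; 0.0548 without day 15 array 1) and by 0.54 ± 0.23 at day 21 (adjusted p = 0.00447). Apoc3, which restrains lipoprotein lipase and so opposes Apoc2, gave 0.56, 0.46 and 0.11 at day 15 and 0.51, 0.38 and 0.19 at day 21. Its means of 0.38 ± 0.24 (adjusted p = 0.0457) and 0.36 ± 0.16 (adjusted p = 0.0368) passed narrowly, and array 3 was the lowest on both days. The day 15 call of Apoc3 was lost without 8 of the 12 arrays, with adjusted p-values up to 0.277, those being days 4 (arrays 1, 2 and 3), 15 and 21 (arrays 1 and 2 of each) and 8 (array 3). At day 21 it was lost without array 1 (adjusted p = 0.223) or array 2 (adjusted p = 0.147), and on both days under quantile normalization (adjusted p = 0.111 and 0.114) and scaling (0.0546 and 0.104). Fits of each day alone lost both calls too (0.133 and 0.0598).

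Apoc4, a minor and weakly expressed protein of the family, was positive on all 12 arrays, from 0.15 to 0.83. Its 3 values were 0.35, 0.83 and 0.15 already at day 4 (0.44 ± 0.35, adjusted p = 0.239), and 0.82, 0.62 and 0.46 at day 21. The day 4 and day 21 arrays therefore overlapped. It was called at day 21 (0.64 ± 0.18, adjusted p = 0.00396; 0.0523 without day 21 array 1) and not at day 15 (0.32 ± 0.13, adjusted p = 0.115; 0.00607 with array weights). At day 8 it was 0.48 ± 0.21 (adjusted p = 0.0655), and it was called there under quantile normalization (0.0251), scaling (0.0179), array weights (0.00755), the set term (0.0409) and without day 4 array 2 (0.0302).

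Apoe, the ligand by which cells take up lipoprotein remnants through receptors of the LDL receptor family, had its highest values at day 15. The arrays gave -0.22, -0.43 and 0.16 at day 4, -0.05, 0.60 and 0.94 at day 8, 1.46, 1.54 and 0.57 at day 15 and 0.80, 0.90 and 0.81 at day 21. The day 15 arrays straddled the narrow day 21 range. Apoe rose by 1.19 ± 0.54 at day 15 (adjusted p = 0.00285) and by 0.84 ± 0.05 at day 21 (adjusted p = 0.0109). The day 15 call was lost in a fit of that day alone (adjusted p = 0.0521), and array 3, the day's only array of the second set, was well below the other 2 at 0.57. The day 21 call was lost without day 21 array 1 (adjusted p = 0.064) or array 2 (adjusted p = 0.0735).

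Apoh, a phospholipid-binding plasma protein of liver also known as beta-2-glycoprotein, stayed near 0. It ran from -0.24 on day 8 array 3 to 0.22 on array 1 of days 4 and 21, and its day 21 mean was 0.05 ± 0.15 (adjusted p = 0.744). The 95% interval of that mean, -0.139 to 0.234, lies below those of Apoa1, Apoc2 and Apom, which begin at 1.71, 1.4 and 1.7. Of all 10689 features ranked from the highest deposited day 21 mean, Apoh was at place 4482 and Apoa5 at 5935, while Apoa1 was at 7, Apoc2 at 9, Apom at 13, Apoa4 at 17, Apob at 29 and Apoa2 at 57. Under the other reading of the sign these places count from the lowest ratio.

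Compared day with day, no step of any member between consecutive days was called with all 12 arrays weighted alike. Between days 4 and 8, days 8 and 15 and days 15 and 21, 0 members passed limma's test, where 0%, 0.178% and 0.00936% of features did (higher: 0%, 0.131% and 0.00936%). Unadjusted p-values under 0.05 were found for 3 members in the first step (Apoa1, Apoe and Apom), 4 in the second (Apoa2, Apoa4, Apoe and Apom) and 1 in the third (Apoa4). Arrays of consecutive days did not overlap for 0 members from day 4 to day 8 (5.77% of features higher), for Apoa2, Apoa4 and Apom from day 8 to day 15 (8.06%), and for Apoa4 and Apoc4 from day 15 to day 21 (5.13%). This depended on the setting. In the second step array weights called 3 members, Apoa2 (adjusted p = 0.0298) and Apoa4 (0.0223) among them, with 582 of 10689 features called. Without day 8 array 3 Apoa4 was called there (0.97, adjusted p = 0.0313), with 24 features called. In the first step 1 member was called without day 8 array 1, with 6 features called.

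From day 4 to day 21, 3 members rose: Apoa2 by 1.46 (standard error 0.309, adjusted p = 0.0163), Apoa4 by 1.86 (0.211, adjusted p = 0.00068) and Apom by 1.92 (0.331, adjusted p = 0.00645). Of all features 5.84% were called, and 2.62% were called higher at day 21. The same 3 genes passed the test of any difference between days (adjusted p = 0.0387, 0.00208 and 0.0181), which 2.9% of features passed. Apoa1 (1.96, adjusted p = 0.0543), Apoc2 (1.96, adjusted p = 0.126) and Apob (1.78, adjusted p = 0.121) had differences as large with a wider spread. In 9 members all day 21 arrays lay above all day 4 arrays, as 12.6% of features did, the exceptions being Apoa5, Apoc4 and Apoh. Apoa2 lost its call without day 4 array 1 (adjusted p = 0.0719), day 21 array 1 (0.0844) or day 21 array 2 (0.0651). Apom lost it under quantile normalization (1.20, adjusted p = 0.14) and scaling of each array (1.41, adjusted p = 0.118). Without day 4 array 3, where it was 1.48, the difference of Apoa1 was 2.41 (adjusted p = 0.0351), and it was also called without day 8 array 1 (adjusted p = 0.0114) or day 8 array 3 (0.0206). Apob was called without day 21 array 3 (2.62, adjusted p = 0.00938), Apoc2 without day 8 array 3 (adjusted p = 0.0177), and Apoe (1.00, adjusted p = 0.0537) without day 8 array 1 (0.0312), day 8 array 3 (0.0431) or day 15 array 3 (0.0199). Array weights called these 4 genes as well (adjusted p = 0.0105 for Apoa1, 0.0192 for Apob, 0.0297 for Apoc2 and 0.012 for Apoe). A fit of the compared arrays alone called Apoa1 (0.0284), Apoc2 (0.0366) and Apoe (0.0155), and the set term called Apoa1 (0.0267).

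Several members lie side by side in the genome, and none of the nearest measured genes around these groups rose. On chromosome 7 the order is Apoc2, Apoc4, Apoc1, Apoe, and on chromosome 9 it is Apoa1, Apoc3, Apoa4, Apoa5, by the RefSeq gene table; Apoa2, Apoh, Apob and Apom stand alone on chromosomes 1, 11, 12 and 17. Next to the chromosome 7 group, Clptm1 was 0.13 ± 0.14 at day 21 (adjusted p = 0.473) and Tomm40, a mitochondrial import channel, fell by 0.28 ± 0.16 (adjusted p = 0.0351). Beside the chromosome 9 group, Pafah1b2 was 0.12 ± 0.21 (adjusted p = 0.376) and Zpr1 fell by 0.26 ± 0.12 (adjusted p = 0.033). Within each group the members differed: Apoc2 at 2.46 lay next to Apoc4 at 0.64, and Apoa1 at 2.55 next to Apoc3 at 0.36. Of the neighbours of the lone genes, Fcer1g, an immune receptor chain beside Apoa2, rose at day 15 (0.43 ± 0.12, adjusted p = 0.00631) and day 21 (0.37 ± 0.18, adjusted p = 0.00867). The others, Nr1i3, Prkca, Axin2, Fkbp1b, Gdf7, Gpank1 and Bag6, lay between -0.21 and 0.098 at day 21 and none was called then. Not all nearest measured genes are adjacent. By gene order 30 genes lie between Fkbp1b and Apob, 9 between Axin2 and Apoh, 4 between Prkca and Apoh and 3 between Pafah1b2 and Apoa1. At day 15 the genes on both sides of Apom had risen, Gpank1 by 0.36 ± 0.18 (adjusted p = 0.0281) and Bag6 by 0.47 ± 0.34 (adjusted p = 0.0269).

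**Figure D2:**
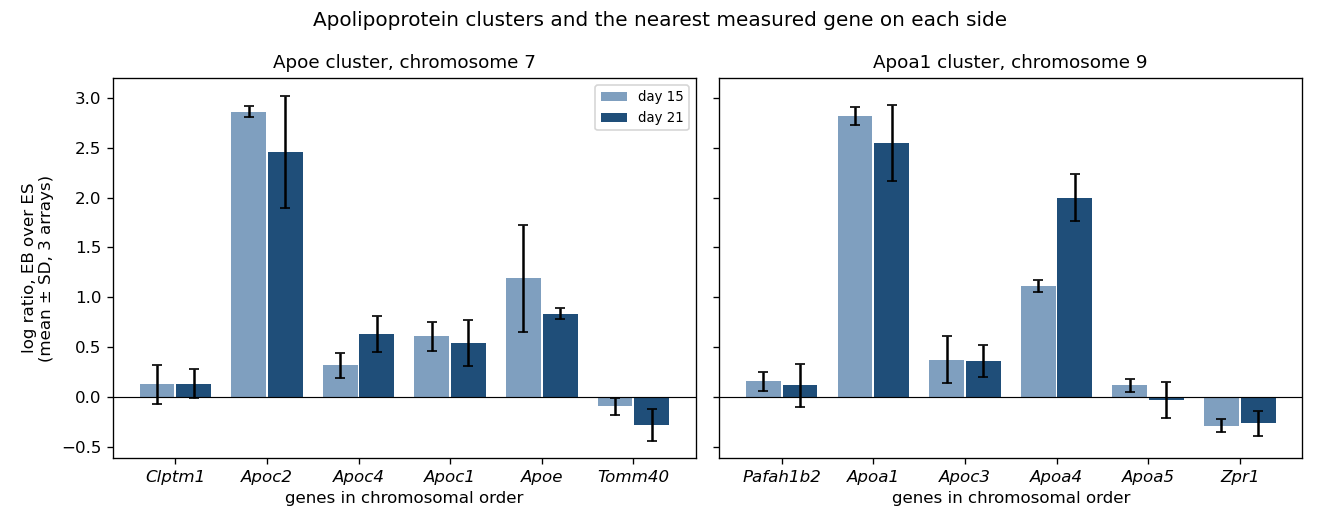
Mean log ratio of EB over ES RNA (vertical axis, log scale as deposited) at days 15 and 21 for the genes of the chromosome 7 and chromosome 9 groups and the nearest measured gene on each side, in chromosomal order. Bars are means of 3 arrays starting at 0 and error bars are standard deviations; Apoc2, Apoa1 and Apoa4 stand out, and the outer genes Clptm1, Tomm40, Pafah1b2 and Zpr1 lie between -0.286 and 0.158.

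Part of the machinery around these proteins rose as well. Among lipoprotein assembly, lipase and lipid transfer genes, 8 of 28 measured rose at day 21 and 3 fell, with a list median of 0.116; over all features 8.78% were called higher and 9.93% lower, and the median was 0.0031. Mttp, the transfer protein that loads fat onto Apob, rose by 1.26 ± 0.70 at day 15 (adjusted p = 0.0178) and 1.11 ± 0.48 at day 21 (adjusted p = 0.0208). Its day 21 values, 1.35, 1.43 and 0.55, were lowest on array 3, as were those of Apob. P4hb, the chaperone subunit that partners Mttp, rose by 0.73 ± 0.07 (adjusted p = 0.00412), and Lpl, the lipase that Apoc2 activates, by 0.64 ± 0.43 (adjusted p = 0.0103). Lcat, the cholesterol esterifying enzyme that Apoa1 activates, fell by 0.60 ± 0.09 (adjusted p = 0.00235).

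Of 25 measured receptor and uptake genes, 6 rose and 1 fell at day 21, with a list median of 0.263, where 8.78% of all features rose and 9.93% fell. Lrp1, a receptor for Apoe, rose by 0.51 ± 0.10 (adjusted p = 0.00231), and the scavenger receptor Stab1 by 0.97 ± 0.67 (adjusted p = 0.0154). At day 8, where 1.23% of features were called higher, the 3 called receptor genes were Vldlr (1.58 ± 1.37, adjusted p = 0.0479), Cubn (1.04 ± 0.32, adjusted p = 0.0478) and Lrp2 (0.98 ± 0.53, adjusted p = 0.0493). None of these 3 was called at day 15 or day 21 (adjusted p from 0.0662 to 0.568). Vldlr was 0.80, 0.78 and 3.16 on the day 8 arrays. Cubn and Lrp2 form the uptake complex of yolk sac and kidney that binds HDL and Apoa1. Of 15 other apolipoproteins and lipid carriers outside the name rule, 2 rose and 1 fell at day 21, with a median of 0.033, which is close to those shares. Clu, also known as apolipoprotein J, rose by 1.37 ± 0.24 (adjusted p = 0.000168), Saa1 by 0.25 ± 0.10 (adjusted p = 0.0242), and Apcs fell by 0.33 ± 0.13 (adjusted p = 0.00991).

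Of 16 measured cholesterol synthesis genes, 0 rose and 3 fell at day 21, with a median of -0.006 and with 9.93% of all features called lower. Those called lower were Idi1, which fell by 0.62 ± 0.30 (adjusted p = 0.00117), Msmo1, by 0.56 ± 0.47 (adjusted p = 0.0356) and Fdps, by 0.45 ± 0.15 (adjusted p = 0.0194). Of 24 fatty acid and retinoid binding genes, 9 rose and 2 fell (8.78% and 9.93% of all features), with a median of 0.227, among them Ttr, the carrier of thyroid hormone and of the retinol carrier (3.26 ± 0.50, adjusted p = 0.00336), and Fabp4, a fatty acid carrier of fat cells (1.32 ± 0.49, adjusted p = 0.00119).

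Transcription factors known to act on apolipoprotein genes were mostly not called. Of 39 measured, 3 rose and 2 fell at day 21, with a median of 0.083, so the share that rose was near the 8.78% of all features and the share that fell was below 9.93%. Hnf4a, the nuclear receptor that drives many apolipoprotein promoters, was -0.04 ± 0.18 (adjusted p = 0.774). Nr2f1 rose by 0.85 ± 0.72 (adjusted p = 0.0213) and Nr5a2 fell by 0.44 ± 0.06 (adjusted p = 0.04). At day 8 the called factors were Gata6 (0.46 ± 0.08, adjusted p = 0.0368) and Gata4 (0.36 ± 0.17, adjusted p = 0.0411), both of early endoderm. At that day 1.23% of all features were called higher, and their median was -0.001. Neither Gata6 nor Gata4 was called at day 15 (adjusted p = 0.0729 and 0.392) or day 21 (0.05 and 0.0556).

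Markers of several cell types changed as well; the shares over all features to set beside their day 21 counts are 8.78% higher and 9.93% lower. Of 28 measured visceral endoderm, yolk sac and fetal liver markers, a list with no apolipoprotein in it, 18 rose and 1 fell at day 21. Its median over arrays was -0.135 to 0.098 at day 4, 0.067 to 0.46 at day 8, 0.206 to 0.68 at day 15 and 0.399 to 0.978 at day 21. Afp, the fetal serum protein of these tissues, was 0.01, 2.42 and 3.01 on the day 8 arrays, low on the same array as Apoa1, Apoc2 and Apom. Alb, the adult serum protein, was -0.02 ± 0.12 at day 15 (adjusted p = 0.957) and rose by 0.92 ± 0.70 at day 21 (adjusted p = 0.00385). Macrophages and fat cells also make Apoe. Of 15 macrophage markers, 8 rose at day 21 (median by array 0.245 to 0.507, and -0.031 to 0.109 at day 4), with Fcgr3 at 1.28 ± 0.15 (adjusted p = 0.000282). The macrophage median was highest on array 3 at day 15 (0.119, 0.131 and 0.28) and day 21 (0.274, 0.245 and 0.507), where the endoderm and apolipoprotein medians were lowest. Array 3 is the only array of the second set on these days, so array and set cannot be told apart. Apoe itself was lowest on array 3 at day 15 (1.46, 1.54 and 0.57) and not at day 21 (0.80, 0.90 and 0.81). Of 8 adipocyte markers 3 rose and 1 fell (0.058 to 0.446), and of 12 astrocyte and neural markers 1 rose and 2 fell (-0.05 to 0.138). Of 11 genes measured for the enterocyte list 3 rose and 1 fell (0.003 to 0.338). These 11 include Pdgfb, which is not an enterocyte marker and was matched to the listed symbol Sis as a synonym. It was not called (-0.06 at day 21, adjusted p = 0.655), but the medians by array include it. Of 15 markers of undifferentiated ES cells, 12 fell (-1.743 to -0.884). Endoderm and ES cell genes helped to choose how the sign is read. That the endoderm list rose and the ES cell list fell is therefore no separate result. The part of any of these cell types in the apolipoprotein values was not tested, and since only ratios were used, no marker can be said to be at or near 0 in level.

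**Figure D3:**
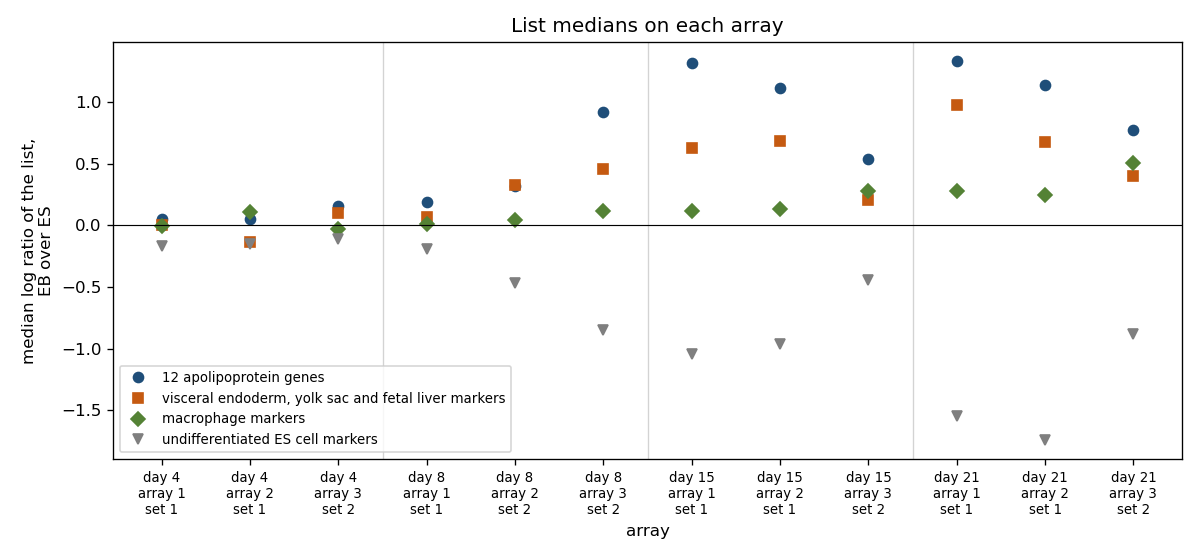
Median log ratio of EB over ES RNA (vertical axis, log scale as deposited) of the 12 apolipoprotein genes and of 3 marker lists on each of the 12 arrays (horizontal axis, with day and array set). Each symbol is the median of a list on 1 array; the apolipoprotein median is 0.541 on day 15 array 3 and 0.77 on day 21 array 3, below the other arrays of those days (1.11 to 1.33), and the endoderm marker median is also the lowest of its day on both arrays.

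Among themselves, the members fell into genes that tracked each other and genes that did not. Over the 12 arrays, which share their days and array sets, Pearson's r was 0.976 between Apoa1 and Apoc2, 0.95 between Apoa1 and Apom and 0.894 between Apoa2 and Apob, against -0.301 between Apoa1 and Apoh. These r values describe likeness only. The genes outside the family most like Apom were Bex3 (r = 0.991), Gpx3 (0.985) and Afp (0.982), and those most like Apoa1 were Afp (0.956), Gpx3 (0.949) and Car4 (0.946). Apob was most like the uncharacterised 1300017J02Rik (0.965) and the plasma proteins Itih2 (0.961) and Serpinc1 (0.956). Apoa4 was most like Tgm2 (0.973), Fcgr3 (0.962) and Kng1 (0.948), and Apoe most like Sccpdh (0.962), Cd55 (0.959) and Tmprss2 (0.959). No gene reached 0.91 with Apoa5, Apoc3 or Apoh, whose closest were Sult2a2 (0.906), Kcnmb4os2 (0.864) and Prnp (0.817).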

How the data were processed

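The 12 two-channel arrays were used as deposited: normalized log ratios, called log2 here by convention, since the labels do not state the base. The authors' scanner, normalization and array design are not given in the sources used here. Groups and array numbers came from the sample titles. Genes were named through the platform annotation (10043 probes with 1 symbol, 29 with several, 1448 with none), probes of a gene were averaged, and 10689 features were tested with limma 3.58.1 in R 4.3.3: 1 model with 4 day means (8 residual and 4.35 prior degrees of freedom), two-sided, Benjamini-Hochberg adjusted, threshold 0.05. ES RNA counts as 1 control sample, so tests against 0 leave out its spread, and without a dye swap a dye effect stays in the ratios. The number of arrays limits precision. Members, lists and named genes (up to 6 called genes per list, 4 per marker list, 3 likest genes, nearest neighbours) were chosen with earlier results of these data known; genes outside these rules, such as Alb and Hnf4a, were named after their values were seen. The main fit did not pair same-numbered arrays, of which 8 of 18 pairs correlated by over 0.1 (-0.14 to 0.389). Whether they pair is not settled. Array 1 of every day was in the first array set and array 3 in the second, so number and set largely go together. Alternatives were other scalings, array weights, a replicate block, robust eBayes, smaller fits, single probes, each array left out and, after seeing the data, the array sets. The fit was tested on simulated data. Promoters are RefSeq's (GRCm38.p6); plots used matplotlib 3.10.9.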

Additional observations from a re-analysis of the deposited data

Results flagged for a closer look

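Apoa2, Apoa4 and Apom differed between days of the same EB to ES ratio by the test of that difference. From day 4 to day 21 they rose by 1.46, 1.86 and 1.92 (limma adjusted p = 0.0163, 0.00068 and 0.00645). All 3 day 21 arrays lay above all 3 day 4 arrays for each, as they did for 12.6% of all features. Apoa2 lost its call without day 4 array 1, day 21 array 1 or day 21 array 2 (limma adjusted p = 0.0719, 0.0844 and 0.0651). Apom lost its call under quantile normalization (0.14) and scaling of each array (0.118). No group has 4 or more arrays, so single arrays were not tested as outliers.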

How the results depend on the processing

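The unsettled direction of the ratio, the unlabelled array sets, the missing dye swap and 3 arrays per day limit all of these values, and probe signal over background was not used here. Members called without each array in turn numbered 0 at day 4 and 0 to 3 at day 8, with 0 without day 8 array 2 or 3 and 1 without day 21 array 2. They numbered 5 to 9 at day 15, lowest without day 15 array 1, and 5 to 10 at day 21, lowest without day 21 array 1. The ranges were 0 to 1 for day 8 against day 4 (1 without day 8 array 1), 0 to 1 for day 15 against day 8 (1 without day 8 array 3), 0 for day 21 against day 15, 2 to 6 for day 21 against day 4 and 1 to 6 for any difference between days, the last 2 being highest without day 8 array 3. Counts over all 10689 features moved as well. The main fit called 244 features at day 8, 1129 at day 15 and 1999 at day 21. Without day 8 array 2 or 3 it was 14 and 6 at day 8. Without day 15 array 1 it was 307 at day 15, and without day 21 array 1 it was 753 at day 21. For day 15 against day 8, day 21 against day 4 and any difference, the main fit called 19, 624 and 310. Without day 8 array 3 it was 615 for day 21 against day 4 and 270 for any difference. Without day 21 array 1, where 2 and 1 members were called, it was 223 and 101. Quantile normalization gave 1 member at day 4 (137 features, against 0 in the main fit). With features called in brackets, scaling of each array gave 4 members at day 8 (580) and 1 for any difference (166). Array weights gave 6 at day 8 (999) and 3 for day 15 against day 8 (582). They gave 7 for day 21 against day 4 (1343) and 8 for any difference (1416). A fit of only the arrays compared gave 0 at day 8 (1) and 6 for day 21 against day 4 (395). With the array set as a term 4 members were called at day 8 (454). The first set alone, which has 2 arrays at day 4 and at day 21, gave 7 for day 21 against day 4 (829). Day 8 of the first set and days 4, 15 and 21 of the second, which has fewer arrays, have 1 array each. In the fits a lone array is assumed to vary like the other arrays of its set. Counts that rest on such days do not show whether calls hold and are left out here. Robust eBayes and single probes moved no count by over 1.5 times. Apart from the fewer arrays, the cause was not tested.

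Under a replicate block, 2, 9 and 10 members were called at days 8, 15 and 21, 4 for day 21 against day 4 (Apoa1 added, adjusted p = 0.0393), 2 for any difference and 0 otherwise. The features called were 350, 1243 and 2036 at these days, 614 for day 21 against day 4 and 270 for any difference. Over all features the block turned the day 8 split from 131 higher and 113 lower to 153 and 197.

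No called value changed sign. Among values that were not called, the second set alone turned Apoa5 (-0.0793), Apoe (0.1614) and Apoh (-0.0297) at day 4, Apoh at day 15 (0.0116), Apoa5 (0.1099) and Apoh (-0.0545) at day 21 and Apoa5 from day 4 to day 21 (0.1892). The first set alone turned Apob at day 4 (-0.005) and Apoa2 (-0.3839), Apob (-0.1548) and Apoe (-0.0542) at day 8. The set term turned Apob at day 4 (-0.09082), and quantile normalization turned Apoc4 from day 4 to day 21 (-0.02913). With each array left out, values that crossed 0 ranged from -0.005 to 0.06965 for Apob and -0.0017 to 0.1252 for Apoh at day 4, from -0.0928 to 0.5492 for Apoa2 and -0.1623 to 0.0085 for Apoh at day 8, from -0.0938 to 0.0762 for Apoa5 and -0.0405 to 0.098 for Apoh at day 21, and from -0.1141 to 0.04887 for Apoh from day 4 to day 21.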
